A study of Mus musculus with 12 samples.

Results

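The genes of de novo lipogenesis, the pathway by which the liver builds fatty acids from sugar-derived carbon, were followed in livers that cannot complete hepatocyte division. The 10 members were Acly, Me1, Acaca, Fasn, Elovl6, Scd1, Pnpla3, Thrsp, Srebf1 and Mlxipl, taken by gene symbol from the 47069 genes listed, and all 10 passed the filter on low values. The values were FPKM (fragments per kilobase of transcript, scaled to each library's mapped reads) from 12 RNA-seq libraries of mouse liver at P14 (postnatal day 14), with 3 libraries in each of 4 groups. WT (wild type) and Cdk1 Liv-/- mice were compared, the latter homozygous for a floxed allele of the mitotic kinase gene Cdk1 and carrying Albumin-Cre, whose promoter is active in cells of the hepatocyte lineage. Either hepatocytes had been isolated from the liver or the whole liver had been homogenized, and all mice were on a standard diet. Neither the strain nor whether the WT mice carried floxed alleles was given in the sources used here. The 3 libraries of a group were taken as separate mice because the study's methods give at least 3 biological replicates for every experiment.

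In de novo lipogenesis, citrate leaving the mitochondria is cleaved to acetyl-CoA, which is carboxylated to malonyl-CoA and condensed into palmitate with NADPH as the reductant, and palmitate is then elongated and desaturated. In the liver the pathway is switched on by insulin through SREBP-1c and by glucose through ChREBP. It is known to be low while pups live on fat-rich milk and to rise at weaning.

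The Cdk1 transcript was lower in Cdk1 Liv-/- than in WT libraries, at 9.45 ± 2.47 against 25.5 ± 4.41 FPKM (SD, n = 3) in hepatocytes and 12.6 ± 1.35 against 23.2 ± 1.95 FPKM (SD, n = 3) in whole liver. The summed FPKM of 8 hepatocyte markers (Alb, Apoa1, Apob, Ttr, Serpina1a, Tat, Cps1 and Hnf4a) in isolated hepatocytes was 80645 to 89494 for WT against 54056 to 58362 for Cdk1 Liv-/-, while whole livers gave 81773 to 85018 for WT against 59487 to 65156 for Cdk1 Liv-/-. Most of this sum was Alb, and single markers differed in direction, since in Cdk1 Liv-/- hepatocytes Apoa1 and Ttr were lower (log2 fold change -1.12 and -0.99) and Cps1 and Hnf4a higher (0.66 and 0.45) by the test. Of 6 markers of white adipocytes, which also run lipogenesis, Lep was at 0 in all 12 libraries and Plin1, Adipoq, Retn and Cfd were at most 0.17 FPKM. The other one, Fabp4, which endothelial cells also express, was at 11.8 to 79.0 FPKM in WT and 8.83 to 10.4 FPKM in Cdk1 Liv-/- hepatocytes, and at 24.5 to 63.2 FPKM in WT and 28.8 to 116 FPKM in Cdk1 Liv-/- whole liver. Whole liver replicate 3 of Cdk1 Liv-/- held Xist at 158 FPKM and the sum of 4 genes of the Y chromosome (Kdm5d, Uty, Ddx3y and Eif2s3y) at 0, whereas Xist stayed within 0.14 FPKM in the remaining 11 libraries, whose Y-linked sums were 48.4 to 62.1 FPKM. The study's methods give only male mice, so this library went against them, and the members' whole liver results are also given without it. An FPKM of 1 on 1 kb of transcript stood for 34.7 to 49.8 reads, and taking the longest transcript of each member the libraries held 13 to 64 reads for Pnpla3, 24 to 1065 for Thrsp and 115 to 2793 for Elovl6, and at least 791 for every other member.

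The members lie on 7 chromosomes of the mouse genome (GRCm38, which is mm10, positions from GENCODE M21). On chromosome 11 are Srebf1 (chr11:60199089-60222581, minus strand), Acaca (chr11:84129672-84401651, plus), Acly (chr11:100476353-100528000, minus) and Fasn (chr11:120805846-120824547, minus). The others are Elovl6 (chr3:129532355-129638495, plus), Mlxipl (chr5:135089890-135138382, plus), Thrsp (chr7:97412938-97417730, minus), Me1 (chr9:86581371-86695953, minus), Pnpla3 (chr15:84167837-84187236, plus) and Scd1 (chr19:44394455-44407879, minus). Several overlap a gene on the opposite strand, of which Rai1, overlapping Srebf1, had the highest mean, 5.20 FPKM. The libraries came from a kit that keeps strand, but whether reads were assigned to genes by strand was not checked.

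RefSeq promoters (GRCm38.p6) were matched for 9 of the 10 members, Scd1 excepted, in 13 windows of 250 bases before a transcript start. Each window was searched on both strands for the E-box CACGTG, the core of the sequence that ChREBP binds, for the sterol response element TCACNCCAC that SREBP binds, for CCAAT, bound by NF-Y, and for the GC box GGGCGG, bound by Sp factors. The E-box was found in 6.02% of all 32851 windows, the sterol response element in 1.05%, CCAAT in 33.8% and the GC box in 32.7%. Among the members the E-box was found in 1, Mlxipl, the sterol response element also in 1, an alternative promoter of Mlxipl, CCAAT in 6 (Fasn, Me1, Mlxipl, Pnpla3, Srebf1 and Thrsp) and the GC box in 5 (Acly, Me1, Mlxipl, Pnpla3 and Srebf1). Counted by window, as the shares of all windows are, CCAAT was in 7 and the GC box in 6 of the 13 member windows. The DR4 direct repeat, bound by nuclear receptors such as LXR, was in 0 of them and in 0.0152% of all windows, and the carbohydrate response element as a pair of perfect E-boxes was in 0 of all windows. A match is a string of letters and not a shown binding site. The 4 windows below, 5′ to 3′ on the gene's strand with E-box and CCAAT letters in capitals, are those of Elovl6 and Thrsp, whose transcripts differed most by genotype in isolated hepatocytes among the matched members, of Fasn, the synthase itself, and of Mlxipl, which alone held an E-box, at positions -98 to -93 from the start.
Elovl6, chr3:129532136-129532385, plus strand: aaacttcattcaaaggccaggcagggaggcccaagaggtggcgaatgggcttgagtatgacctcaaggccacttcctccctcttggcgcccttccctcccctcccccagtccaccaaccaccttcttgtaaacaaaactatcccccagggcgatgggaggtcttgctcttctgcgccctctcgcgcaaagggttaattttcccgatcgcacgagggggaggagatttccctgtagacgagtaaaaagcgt
Thrsp, chr7:97417551-97417800, minus strand: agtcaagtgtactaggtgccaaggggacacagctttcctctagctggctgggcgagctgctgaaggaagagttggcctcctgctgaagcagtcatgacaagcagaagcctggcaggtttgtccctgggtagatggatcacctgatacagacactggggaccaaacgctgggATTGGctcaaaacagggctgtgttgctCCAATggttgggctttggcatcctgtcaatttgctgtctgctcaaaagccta
Fasn, chr11:120824548-120824797, minus strand: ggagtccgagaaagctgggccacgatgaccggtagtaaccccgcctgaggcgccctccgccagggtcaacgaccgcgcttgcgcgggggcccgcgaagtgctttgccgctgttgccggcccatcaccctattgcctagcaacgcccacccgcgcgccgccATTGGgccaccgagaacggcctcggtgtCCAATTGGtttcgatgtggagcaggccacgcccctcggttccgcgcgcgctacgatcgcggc
Mlxipl, chr5:135089640-135089889, plus strand: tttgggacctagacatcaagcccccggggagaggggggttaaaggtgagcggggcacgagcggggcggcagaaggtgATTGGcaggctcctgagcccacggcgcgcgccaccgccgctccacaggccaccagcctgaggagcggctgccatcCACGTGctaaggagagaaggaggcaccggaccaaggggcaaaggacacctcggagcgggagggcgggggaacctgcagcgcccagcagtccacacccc
The Fasn window held 3 CCAAT matches within positions -90 to -55, the pair nearest the start overlapping each other on opposite strands, and the Thrsp window held 2, at -79 to -75 and -52 to -48. None of these motifs was found in the Elovl6 window.

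The first comparison asked how the members differed between Cdk1 Liv-/- and WT hepatocytes. Of the 10 members, 6 were higher in Cdk1 Liv-/- hepatocytes at an adjusted p of at most 0.1 from limma, where 12.1% of the 17386 genes tested were called higher, and 0 were lower, where 6.61% were called lower. Scd1, Elovl6 and Thrsp rose most, by 10.5-fold, 7.76-fold and 6.31-fold on the scale of FPKM + 0.5, followed by Me1, Fasn and Mlxipl. The size for Elovl6 and its order with Scd1 depended on the pseudocount. The log2 fold changes of Elovl6, Scd1 and Thrsp were 3.59, 3.48 and 2.85 with a pseudocount of 0.1. With a pseudocount of 1 they were 2.47, 3.29 and 2.46. The median log2 fold change of the 10 was 0.74 against 0.05 over all genes tested. At an unadjusted p under 0.05 the counts were 6 higher and 2 lower, and the share of all genes at that p was not counted. The study's own kind of test, a two-sample test with q-values, called 5 higher (all but Fasn, q = 0.114) and 0 lower.

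**Figure D1:**
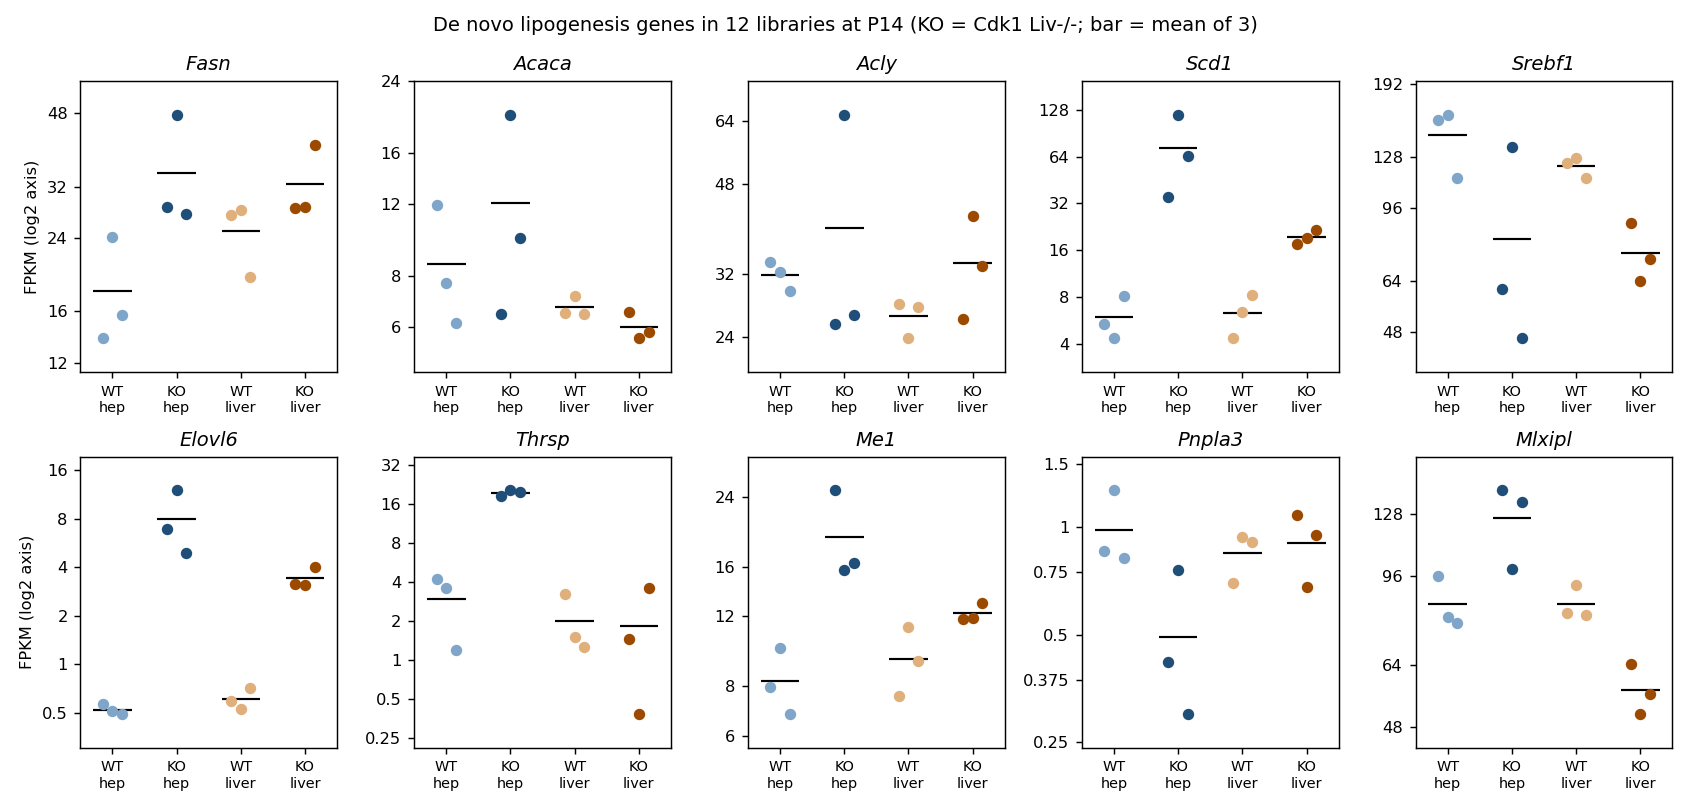
FPKM of each of the 10 members (log2 axis, one panel per gene) in the 12 libraries, with 3 points per group in replicate order and a bar at the group mean; hep is isolated hepatocytes and KO is Cdk1 Liv-/-. The 3 Cdk1 Liv-/- hepatocyte points of Scd1, Elovl6 and Thrsp sit above every other library, and those of Srebf1 and Acly are spread by replicate 2.

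The largest changes were in the enzymes that finish the fatty acid. Scd1, the delta-9 desaturase that turns stearate into oleate, was at 5.33, 4.32 and 8.09 FPKM in the 3 WT hepatocyte libraries and at 35.1, 120 and 64.4 FPKM in those of Cdk1 Liv-/-. The groups were far apart, and the Cdk1 Liv-/- libraries also differed among themselves, with replicate 2 the highest. The log2 fold change was 3.39 ± 0.45 (SE, adjusted p = 0.0091, limma). Elovl6, which elongates palmitate to stearate, was at 0.57, 0.51 and 0.49 FPKM in WT hepatocytes and at 6.91, 12.0 and 4.88 FPKM in Cdk1 Liv-/- hepatocytes. It was low in WT and again highest in Cdk1 Liv-/- replicate 2, with a log2 fold change of 2.96 ± 0.31 (SE, adjusted p = 0.0045, limma). Scd1 was the gene whose centred profile over the 12 libraries lay nearest to that of Elovl6 among the members, at a root mean square difference of 0.45 log2 units, and of 12282 genes compared Elovl6 was the nearest of all to Scd1.

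Thrsp encodes Spot 14, a small protein that responds to thyroid hormone and dietary carbohydrate and supports fatty acid synthesis. It stood at 4.18, 3.55 and 1.18 FPKM in WT hepatocytes and at 18.3, 20.3 and 19.9 FPKM in Cdk1 Liv-/- hepatocytes. The 3 Cdk1 Liv-/- libraries lay close together while WT replicate 3 was low, and the log2 fold change was 2.66 ± 0.38 (SE, adjusted p = 0.0109, limma).

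Of the enzymes that supply and condense the carbon, 2 of 4 rose in hepatocytes. Me1, the cytosolic malic enzyme that yields NADPH, was at 7.96, 9.97 and 6.80 FPKM in WT and 24.9, 15.7 and 16.4 FPKM in Cdk1 Liv-/- hepatocytes, without overlap (log2 fold change 1.14 ± 0.22 SE, adjusted p = 0.0265, limma). Fasn, the multifunctional synthase that makes palmitate, was at 13.8, 24.2 and 15.7 FPKM in WT and 28.6, 47.7 and 27.4 FPKM in Cdk1 Liv-/- hepatocytes. Its groups did not overlap, though WT replicate 2 came close to the Cdk1 Liv-/- libraries, and the log2 fold change of 0.93 ± 0.29 (SE) had an adjusted p of 0.0943 from limma, just within the threshold. The call of Fasn was lost when any 1 of the 6 libraries other than WT replicate 2 was left out (adjusted p = 0.137 to 0.224, limma). Size factors (log2 fold change 0.85, adjusted p = 0.124, limma) and no filter on low values (adjusted p = 0.208, limma) also ended the call of Fasn. So did variances that do not follow the mean level (adjusted p = 0.106, limma). Without Cdk1 Liv-/- replicate 2 the log2 fold change was 0.67 (adjusted p = 0.185, limma).

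Acly and Acaca did not pass in hepatocytes. Acly, the citrate lyase that releases cytosolic acetyl-CoA, was at 33.7, 32.2 and 29.6 FPKM in WT and 25.5, 65.8 and 26.6 FPKM in Cdk1 Liv-/- hepatocytes. Replicate 2 of Cdk1 Liv-/- lay above all WT libraries and the other two below them. The log2 fold change of Acly was 0.16 with a 95% interval of -0.71 to 1.03, and it was -0.28 without that library. Acaca, the carboxylase that makes malonyl-CoA and commits carbon to the pathway, was at 11.9, 7.67 and 6.12 FPKM in WT and 6.47, 19.9 and 9.91 FPKM in Cdk1 Liv-/- hepatocytes. These ranges overlapped, and the log2 fold change of Acaca was 0.38 with a 95% interval of -0.65 to 1.41.

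Of the pathway's transcription factors, Mlxipl passed in hepatocytes and Srebf1 did not. Mlxipl, which encodes ChREBP, was at 96.0, 79.7 and 77.6 FPKM in WT and 143, 99.3 and 135 FPKM in Cdk1 Liv-/- hepatocytes. The highest WT and the lowest Cdk1 Liv-/- library nearly met, and the log2 fold change was 0.56 ± 0.16 (SE, adjusted p = 0.0798, limma). That call of Mlxipl was lost when any 1 of the 6 libraries other than Cdk1 Liv-/- replicate 2 was left out (adjusted p = 0.116 to 0.203, limma) and with size factors (adjusted p = 0.130, limma). It was also lost with no filter on low values. Srebf1, which encodes SREBP-1, was at 157, 162 and 114 FPKM in WT and 61.0, 135 and 46.4 FPKM in Cdk1 Liv-/- hepatocytes. Here Cdk1 Liv-/- replicates 1 and 3 were below every WT library, while replicate 2 lay within the WT range. The log2 fold change of Srebf1 was -0.97 ± 0.39 (SE, adjusted p = 0.172, limma) and did not pass. Without replicate 2 it was -1.41 (adjusted p = 0.0264, limma).

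Pnpla3, a lipid droplet lipase and acyltransferase whose gene is known as a target of SREBP-1c, was at 0.86, 1.27 and 0.82 FPKM in WT and 0.42, 0.76 and 0.30 FPKM in Cdk1 Liv-/- hepatocytes. All 3 Cdk1 Liv-/- libraries were below the lowest WT library, on few reads, and the log2 fold change of -0.59 ± 0.22 (SE, adjusted p = 0.140, limma) did not pass. Groups that do not overlap were found for 7 of the 10 members, 6 higher and 1 lower, against 20.6% and 13.4% of all genes tested. Without Cdk1 Liv-/- replicate 2, 5 members were higher (all but Fasn of the 6) and 2 were lower, Srebf1 and Pnpla3. In 1 fit of all 12 libraries 6 were higher and the same 2 lower. The shares of all genes called in these alternative fits were not counted.

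Replicate 2 of Cdk1 Liv-/- hepatocytes was the highest of its group in 8 of the 10 members, Me1 and Mlxipl excepted. Its median deviation over the members was 0.58 log2 units from the group mean. The same was not counted over all genes, so whether this was particular to the members was not tested. Only Thrsp among the 8 showed almost no spread. No other library had a median deviation beyond 0.23 log2 units in size.

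**Figure D2:**
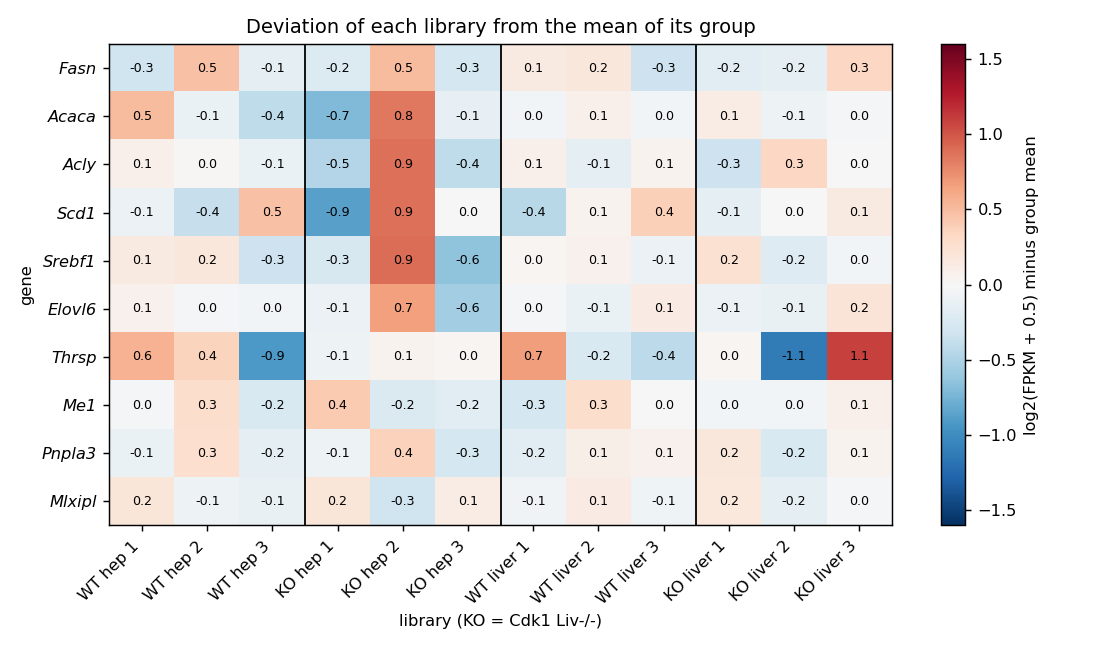
Deviation of each library from the mean of its group in log2(FPKM + 0.5), for the 10 members (rows) and 12 libraries (columns), with the value printed in each cell and the colour running from blue (below) to red (above). Replicate 2 of Cdk1 Liv-/- hepatocytes is above its group in 8 members, by 0.9 in Srebf1, Acly and Scd1, and Thrsp varies most among the whole liver libraries.

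Markers of other cell types were also compared between genotypes in the isolated hepatocytes. The summed FPKM of 6 markers each was 106 to 367 in WT and 79.6 to 128 in Cdk1 Liv-/- hepatocytes for Kupffer cells, 75.6 to 212 and 33.0 to 54.2 for sinusoidal endothelial cells, and 114 to 350 and 78.1 to 107 for stellate cells, with 1, 5 and 1 of the 6 lower by the test and 0 higher, beside 6.61% of all genes lower. Of the neutrophil markers 0 of 6 were called, and of the erythroid and B cell markers 2 of 5 each were lower. The summed cholangiocyte markers went from 14.6 to 30.1 in WT to 66.8 to 124 in Cdk1 Liv-/- hepatocytes, with 4 of 5 tested higher, beside 12.1% of all genes. WT replicate 3 had the highest sums of Kupffer, endothelial and stellate markers among the hepatocyte libraries. Without it 4 members were higher, as the calls of Fasn and Mlxipl were lost (adjusted p = 0.208 and 0.186, limma), and Scd1 and Elovl6 were at log2 fold changes of 3.62 and 2.93. The part of these cells in the members' values was not tested otherwise.

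The second comparison set the genotypes against each other in whole liver. Here 3 members were higher in Cdk1 Liv-/- livers at an adjusted p of at most 0.1 from limma, where 38% of all genes tested were called higher, and 2 were lower, where 7.53% were. Elovl6 and Scd1 rose again, by 3.53-fold and 2.99-fold on the scale of FPKM + 0.5, and Me1 rose by 1.30-fold, while Mlxipl and Srebf1 fell. The median of the members, 0.18 on the log2 scale, was that of all genes tested, 0.18, so that whole liver values had a general upward offset. With size factors, which moved the median of all genes to 0.01, 17.9% of genes were called higher and 16.4% lower, and among the members 2 were higher (Scd1 and Elovl6) and 3 lower (Srebf1, Mlxipl and Acaca).

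**Figure D3:**
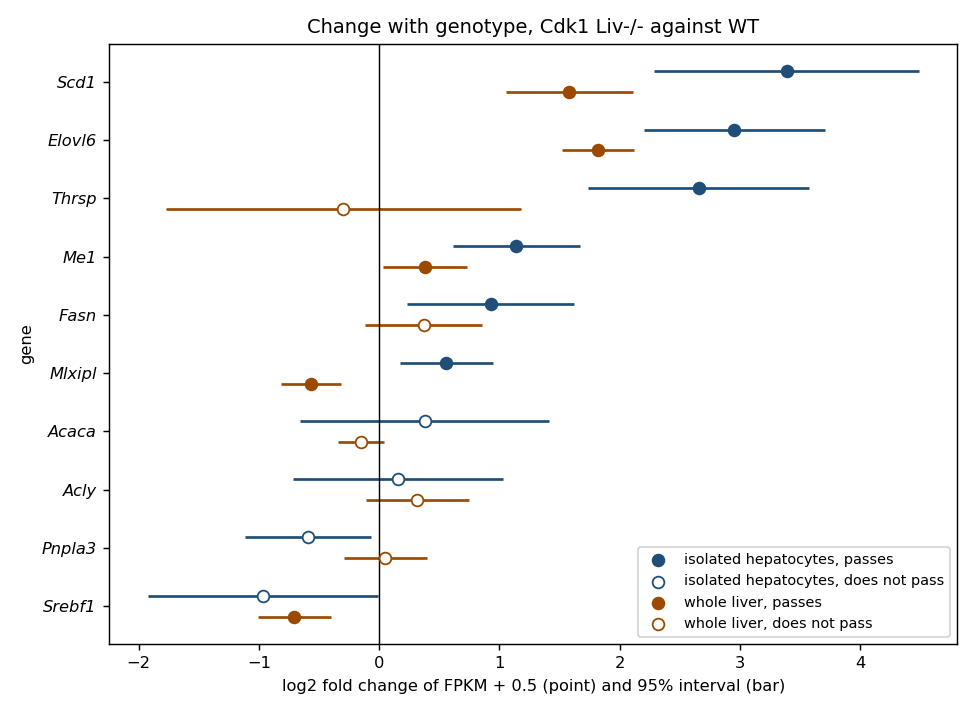
Log2 fold change of FPKM + 0.5, Cdk1 Liv-/- against WT, for the 10 members in isolated hepatocytes (blue) and whole liver (brown), with 95% intervals from limma and filled points where the adjusted p was at most 0.1. Scd1 and Elovl6 are to the right of 0 in both, Thrsp only in hepatocytes (2.66 against -0.30), and Mlxipl lies on opposite sides of 0 (0.56 and -0.57).

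In whole liver Elovl6 was at 0.59, 0.53 and 0.71 FPKM in WT and 3.16, 3.11 and 4.01 FPKM in Cdk1 Liv-/-. The groups were tight and well apart (log2 fold change 1.82 ± 0.12 SE, adjusted p = 7e-04, limma). Scd1 was at 4.38, 6.41 and 8.18 FPKM in WT and 17.5, 19.3 and 21.5 FPKM in Cdk1 Liv-/- whole liver (log2 fold change 1.58 ± 0.22 SE, adjusted p = 0.0054, limma). Its Cdk1 Liv-/- libraries differed little here, in contrast to the wide range of the isolated hepatocytes. Without the Cdk1 Liv-/- library that held Xist, the log2 fold changes were 1.71 for Elovl6 and 1.51 for Scd1, and both still passed.

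Both transcription factors were lower in whole liver. Srebf1 was at 124, 127 and 114 FPKM in WT and 88.4, 64.1 and 72.4 FPKM in Cdk1 Liv-/- whole liver (log2 fold change -0.71 ± 0.12 SE, adjusted p = 0.0108, limma). Mlxipl was at 81.2, 92.1 and 80.4 FPKM in WT and 64.1, 51.0 and 56.0 FPKM in Cdk1 Liv-/- whole liver (log2 fold change -0.57 ± 0.10 SE, adjusted p = 0.0113, limma). Neither gene's groups overlapped, and without the Xist library the changes were -0.69 for Srebf1 and -0.56 for Mlxipl. Of the hepatocyte markers, 4 of 8 were lower and 0 higher in Cdk1 Liv-/- whole liver, with a median log2 fold change of -0.36, while 5 of 6 neutrophil and 4 of 5 cholangiocyte markers were higher, as were 3 of 6 Kupffer and 3 of 6 stellate markers (1 stellate marker was lower), beside 38% of all genes. Of the sinusoidal endothelial markers 1 of 6 was higher and 0 were lower, with a median log2 fold change of 0.08. Of the erythroid and B cell markers 2 of 5 each were lower and 0 higher. Without the Xist library, an alternative chosen after seeing the data, 3 hepatocyte and 0 B cell markers were lower. Then 1 neutrophil, 2 cholangiocyte, 2 Kupffer, 3 stellate and 0 sinusoidal endothelial markers were higher. Fewer hepatocytes in the tissue and less of a transcript in each hepatocyte cannot be told apart in such samples.

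The malic enzyme and the synthase changed little in whole liver. Me1 was at 7.54, 11.3 and 9.23 FPKM in WT and 11.8, 11.8 and 12.9 FPKM in Cdk1 Liv-/- whole liver, a log2 fold change of 0.38 ± 0.14 (SE, adjusted p = 0.0872, limma). The call of Me1 was lost with size factors (log2 fold change 0.17, adjusted p = 0.393, limma) and when any 1 library other than WT replicate 2 was left out (adjusted p = 0.141 to 0.201, limma), the Xist library among them (0.34). No filter on low values, the replicate number as a block and 1 fit of all 12 libraries also ended that call. Fasn was at 27.4, 28.1 and 19.4 FPKM in WT and 28.4, 28.5 and 40.4 FPKM in Cdk1 Liv-/- whole liver, groups that barely failed to overlap, and its log2 fold change of 0.37 ± 0.20 (SE, adjusted p = 0.195, limma) did not pass. Its highest value was that of the Xist library, without which the log2 fold change of Fasn was 0.20 (adjusted p = 0.428, limma). In all, 4 members were above and 2 below WT without overlap, against 43.2% and 8.94% of all genes tested.

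Acly, Acaca, Thrsp and Pnpla3 did not pass in whole liver. Acly was at 27.8, 23.9 and 27.5 FPKM in WT and 26.0, 41.7 and 33.1 FPKM in Cdk1 Liv-/- (log2 fold change 0.32, 95% interval -0.11 to 0.75). Acaca was at 6.50, 7.14 and 6.46 FPKM in WT and 6.51, 5.62 and 5.84 FPKM in Cdk1 Liv-/- (log2 fold change -0.15, 95% interval -0.35 to 0.04). Acaca varied little within a group, while Acly was spread in Cdk1 Liv-/- and passed without replicate 1 of that group (log2 fold change 0.49, adjusted p = 0.0474, limma), within a range of 0.15 to 0.49 over the libraries left out. Thrsp was low and scattered in whole liver, at 3.24, 1.49 and 1.26 FPKM in WT and 1.45, 0.38 and 3.60 FPKM in Cdk1 Liv-/-, so that its log2 fold change of -0.30 had a wide 95% interval, -1.78 to 1.18. The Xist library held the highest of these Thrsp values, and without it the log2 fold change was -0.85 (adjusted p = 0.251, limma). Pnpla3 was at 0.70, 0.94 and 0.91 FPKM in WT and 1.08, 0.68 and 0.95 FPKM in Cdk1 Liv-/- whole liver (log2 fold change 0.05, 95% interval -0.29 to 0.39). Without the Xist library the log2 fold changes of Acly, Acaca and Pnpla3 were 0.32, -0.14 and 0.021.

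A further fit of the 12 libraries asked if the effect of losing Cdk1 on a member depended on the compartment (the interaction term). It passed in 4 members, each with the higher change in hepatocytes, where 2.35% of all genes tested passed in that direction and 7.49% in the other. With size factors the counts were 4 and 0, beside 3.16% and 2.83% of all genes. In Mlxipl the difference of the log2 fold changes was 1.13 ± 0.20 (SE, adjusted p = 0.0350, limma), since it rose in 1 compartment and fell in the other. In Thrsp it was 2.96 ± 0.75 (SE, adjusted p = 0.0637, limma), in Scd1 1.81 ± 0.54 (SE, adjusted p = 0.0870, limma) and in Elovl6 1.14 ± 0.35 (SE, adjusted p = 0.0922, limma). In 0 members was the change lower in hepatocytes by the adjusted test. At an unadjusted p under 0.05 the counts were 5 higher and 1 lower, and the share of all genes at that p was not counted. Leaving out 1 library at a time gave 0 to 3 members with a higher change in hepatocytes and 0 to 1 with a lower one, Pnpla3 (-0.83, adjusted p = 0.0886, limma) without Cdk1 Liv-/- hepatocyte replicate 2. The call of Mlxipl was lost only without WT whole liver replicate 1 (adjusted p = 0.101, limma). That of Scd1 was lost in 10 of 12 such fits (adjusted p = 0.104 to 0.164) and kept without WT hepatocyte replicate 3 or Cdk1 Liv-/- hepatocyte replicate 1. That of Elovl6 was lost in 10 (adjusted p = 0.101 to 0.187) and kept without Cdk1 Liv-/- hepatocyte replicate 2 or 3. That of Thrsp was lost in 6 (adjusted p = 0.101 to 0.162), those without WT hepatocyte replicate 3, Cdk1 Liv-/- hepatocyte replicate 3, Cdk1 Liv-/- whole liver replicate 2 or any WT whole liver library. The differences of Me1 (0.76), Fasn (0.56), Acaca (0.53), Acly (-0.16), Srebf1 (-0.26) and Pnpla3 (-0.64) did not pass, with adjusted p from 0.132 to 0.861 (limma), though Me1 passed without WT hepatocyte replicate 2 (0.90, adjusted p = 0.0736, limma). Without the Xist library the differences were 3.50 in Thrsp, 1.12 in Mlxipl, 1.88 in Scd1 and 1.24 in Elovl6, and 0.80 in Me1, 0.72 in Fasn, 0.51 in Acaca, -0.16 in Acly, -0.28 in Srebf1 and -0.61 in Pnpla3.

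The same values can be read within a genotype. In WT mice 0 of the 10 members differed between isolated hepatocytes and whole liver by limma. Of all genes 0.104% were called higher and 1.42% lower in hepatocytes. An unadjusted p under 0.05 was found for 1 member, Acly, and the share of all genes at that p was not counted. Acly was higher in all 3 WT hepatocyte libraries, by 0.27 on the log2 scale (95% interval 0.06 to 0.47, adjusted p = 0.194, limma). Mlxipl was at 84.4 ± 10.1 FPKM in WT hepatocytes and 84.5 ± 6.54 FPKM in WT whole liver (SD, n = 3), and the interval of its difference was -0.25 to 0.24 on the log2 scale. Without WT hepatocyte replicate 3, 2 members passed, Acly (0.32) and Srebf1 (0.39), each higher in hepatocytes.

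In Cdk1 Liv-/- mice 5 members were higher in isolated hepatocytes than in whole liver, where 8.86% of all genes were, and 1 was lower, where 35.9% were. With size factors, which moved the median of all genes from -0.19 to 0.02, 6 members were higher (Acaca added) and 0 lower, beside 20.2% and 21.3% of all genes. Thrsp stood at 19.5 ± 1.06 against 1.81 ± 1.64 FPKM (SD, n = 3), a log2 difference of 3.38 ± 0.52 (SE, adjusted p = 0.0051, limma). Scd1 stood at 73.0 ± 42.9 against 19.4 ± 1.99 FPKM (SD, n = 3), a log2 difference of 1.71 ± 0.41 (SE, adjusted p = 0.0230, limma). The others were Mlxipl, at 126 ± 23.2 against 57.0 ± 6.66 FPKM (log2 difference 1.12, adjusted p = 0.0042, limma), Elovl6, at 7.94 ± 3.68 against 3.43 ± 0.51 FPKM (1.02, adjusted p = 0.0449, limma), and Me1, at 19.0 ± 5.13 against 12.2 ± 0.64 FPKM (0.59, adjusted p = 0.0486, limma). The call of Elovl6 was lost without Cdk1 Liv-/- whole liver replicate 1 or 2 (adjusted p = 0.118 and 0.127, limma), and that of Me1 without any 1 of the 3 Cdk1 Liv-/- whole liver libraries (adjusted p = 0.103 to 0.128, limma). Pnpla3 was the lower one, at 0.49 ± 0.24 against 0.90 ± 0.20 FPKM (-0.51, adjusted p = 0.0993, limma), its libraries overlapped, and its call was lost in 11 of 16 alternatives. Without the Xist library the log2 differences were 3.93 in Thrsp, 1.79 in Scd1, 1.11 in Mlxipl and 1.13 in Elovl6, which still passed. Those of 0.63 in Me1, -0.49 in Pnpla3, 0.80 in Acaca, 0.23 in Fasn, 0.11 in Acly and -0.051 in Srebf1 did not pass. Every one of the 6 Kupffer, 6 endothelial, 6 stellate and 6 neutrophil markers was lower in these hepatocytes than in Cdk1 Liv-/- whole liver, whereas in WT 0 of them differed by the test, with median log2 differences of the lists from -1.28 to 0.08. Of the others in WT, 3 of 5 cholangiocyte, 1 of 5 B cell and 1 of 5 erythroid markers were lower in hepatocytes. In Cdk1 Liv-/- these counts were 5 of 5 cholangiocyte, 5 of 5 B cell and 3 of 5 erythroid markers. Hepatocyte markers had 3 of 8 higher and 1 lower in Cdk1 Liv-/- hepatocytes than in whole liver, and 0 of 8 differed in WT. Their part in the members' differences was not tested. The 4 comparisons of a compartment or a genotype share libraries with one another.

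**Figure D4:**
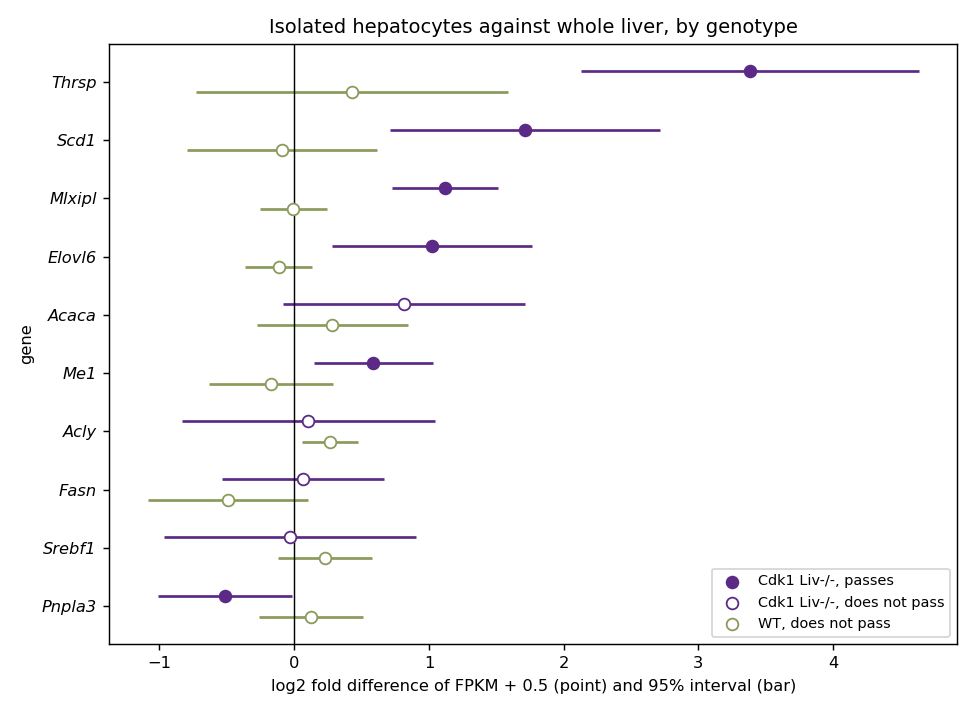
Log2 fold difference of FPKM + 0.5, isolated hepatocytes against whole liver, for the 10 members in Cdk1 Liv-/- (purple) and WT (green), with 95% intervals from limma and filled points where the adjusted p was at most 0.1. All 10 WT points are open and lie within 0.5 of 0, and Thrsp at 3.38 is the farthest in Cdk1 Liv-/-.

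The levels of the members spanned a wide range on the per-length FPKM scale. In WT hepatocytes Srebf1 (144 FPKM on average) and Mlxipl (84.4) were highest, then Acly (31.8) and Fasn (17.9), then Acaca (8.57), Me1 (8.24), Scd1 (5.91) and Thrsp (2.97), and Pnpla3 (0.98) and Elovl6 (0.52) were lowest. The ranges of Acaca, Me1 and Scd1 overlapped one another, as did those of Thrsp and Pnpla3, so their order was not resolved. In Cdk1 Liv-/- hepatocytes the means ran from Mlxipl (126 FPKM) through Srebf1 (80.9), Scd1 (73.0), Acly (39.3), Fasn (34.6), Thrsp (19.5), Me1 (19.0), Acaca (12.1) and Elovl6 (7.94) to Pnpla3 (0.49). In this group most neighbours in the order overlapped in range: Srebf1 with Mlxipl and Scd1, Scd1 with Acly, Acly with Fasn, Thrsp, Me1 and Acaca with one another, and Acaca with Elovl6.

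Likeness of profiles was measured as the root mean square difference of centred log2 values over the 12 libraries, which is to be read against each gene's own root mean square. This was 1.47 for Thrsp, 1.45 for Scd1, 1.28 for Elovl6 and 0.30 for Pnpla3, and 0.38 to 0.56 for the others. Among all 12282 genes with a mean of at least 1 FPKM, the nearest to Elovl6 were Mybl1 (0.24), Aldh1a7 (0.27) and Golm1 (0.28), and after Elovl6 the nearest to Scd1 were Ppl (0.46) and Eda2r (0.49). The nearest to Thrsp were Serpina3k (0.57), Prodh (0.58) and Ces3a (0.65). Pnpla3 had its nearest in Elovl5 (0.11), an elongase of polyunsaturated fatty acids, then Rarb (0.15) and Slc39a4 (0.16). For Acly the nearest was the acyl-CoA synthetase gene Acsl3 (0.20), followed by Cstf2 (0.21) and Rdh11 (0.22). The nearest to Fasn were BC021614 (0.23), Cdt1 (0.24) and Wdr62 (0.25), and those to Me1 were Dtnb (0.16), Cdc45 (0.18) and Pcsk6 (0.19). Acaca was nearest to Gm17296 (0.15), Erc1 (0.18) and Fan1 (0.18), Srebf1 to Gabbr2 (0.22), Gadd45gip1 (0.25) and Dnmt3b (0.29), and Mlxipl to Asic5 (0.16), Ugt2a3 (0.17) and 4732465J04Rik (0.17). These are descriptions over 12 shared libraries and 4 groups.

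Around the 10 members, 114 related genes in 6 lists were counted, of which 109 were tested. In hepatocytes 22 of them were higher and 10 lower in Cdk1 Liv-/-, and in whole liver 44 were higher and 15 lower, to be read against the 12.1% and 6.61%, and 38% and 7.53%, of all genes. The hepatocyte count of 22 was not stable, since it was 8 without WT replicate 1, 12 without WT replicate 2 or Cdk1 Liv-/- replicate 1, 13 without Cdk1 Liv-/- replicate 3, 14 without WT replicate 3 and 11 with no filter, and the count of 10 was 6 without Cdk1 Liv-/- replicate 3. With size factors the whole liver counts were 22 higher and 30 lower, beside 17.9% and 16.4% of all genes tested. Without the Xist library they were 36 and 12, and of the genes named below Pdk4, Mogat1, Gpat4, Pparg, Bhlhe40, Insr, Cidea and Mgll then lost their whole liver calls. Genes of the lipid droplet and lipolysis had 7 of 19 higher and 2 lower in hepatocytes and 9 higher and 2 lower in whole liver. Cidec, a droplet fusion protein, rose by 1.63 in hepatocytes and 2.91 in whole liver on the log2 scale, and its relative Cidea, whose mean in every group was under 1 FPKM, by 1.08 and 1.30. Plin3, a droplet coat protein, rose by 1.09 in hepatocytes, and Hsd17b13, a droplet enzyme of hepatocytes, by 1.31 in whole liver. Fitm1 fell by 1.18 and by 0.82 in the respective compartments, Ces1d, a lipase, fell by 0.65 in hepatocytes and Mgll, which cleaves monoacylglycerol, fell by 0.38 in whole liver.

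**Figure D5:**
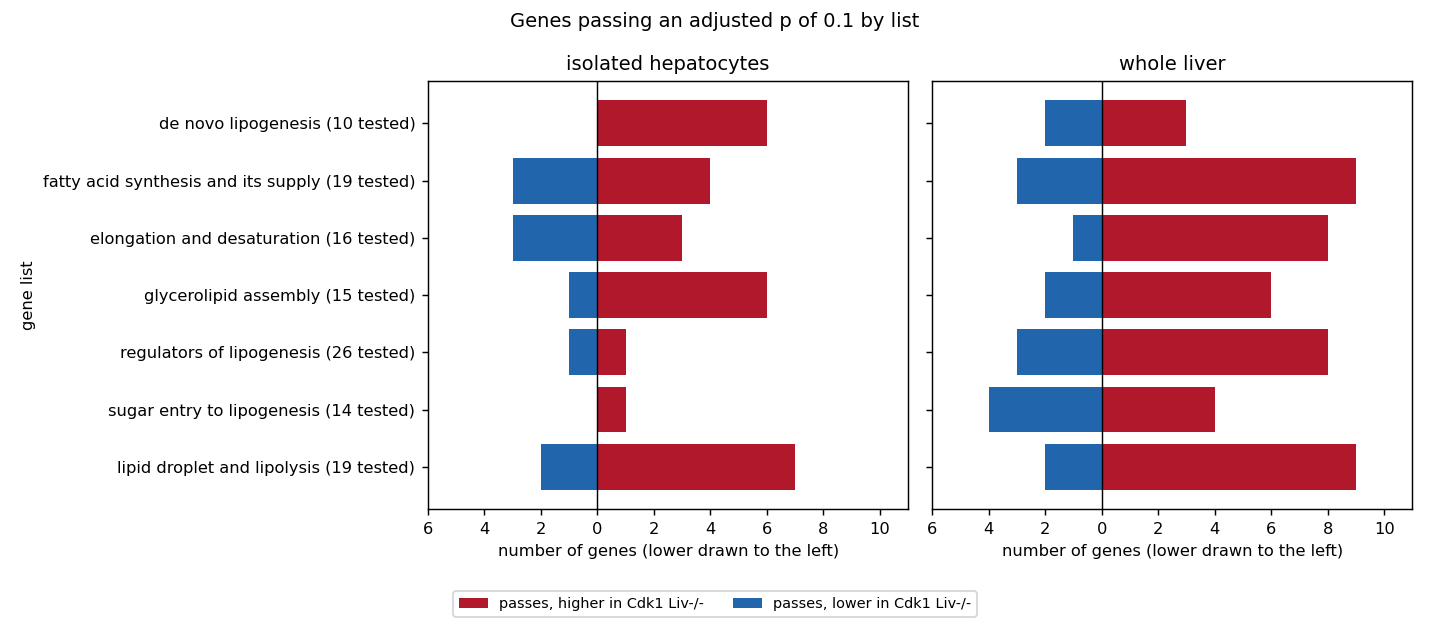
Number of genes in each list that passed an adjusted p of 0.1 from limma, higher (red, to the right) or lower (blue, drawn to the left) in Cdk1 Liv-/- than in WT, in isolated hepatocytes and whole liver, with the number tested beside each list's name. The member genes have 6 higher and 0 lower in hepatocytes and 3 higher and 2 lower in whole liver, and the regulators 1 and 1 against 8 and 3.

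Elongation and desaturation enzymes had 3 of 16 higher and 3 lower in hepatocytes and 8 higher and 1 lower in whole liver. Elovl7 rose by 1.51 in hepatocytes and 1.67 in whole liver on the log2 scale, beside Elovl1 (0.51) and Hsd17b12 (0.49) in hepatocytes and Scd2 (1.03) and Fads3 (0.86) in whole liver. Elovl2, an elongase of polyunsaturated fatty acids, fell by 0.55 and 0.42 in the respective compartments, and Elovl5 (-0.70) and Hacd1 (-0.52) fell in hepatocytes. Scd1 and Elovl6 thus had larger changes than any of these in hepatocytes.

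The list of fatty acid synthesis and its supply had 4 of 19 higher and 3 lower in hepatocytes and 9 higher and 3 lower in whole liver. Aacs, which activates acetoacetate in the cytosol, rose by 1.32 and 0.80 in the respective compartments, and Acacb (1.08), the mitochondrial relative of Acaca, and Acss2 (0.90), the cytosolic acetyl-CoA synthetase, rose in hepatocytes. In whole liver Pdk4 (1.19), a kinase that shuts pyruvate dehydrogenase, and Pgd (0.99), which yields NADPH in the pentose phosphate pathway, rose. Acsl1, a long-chain acyl-CoA synthetase, fell by 0.64 and 0.57, Mcat (-0.52) and Cbr4 (-0.41) of mitochondrial fatty acid synthesis fell in hepatocytes, and Pdk2 (-0.62) and Pdhb (-0.34) fell in whole liver. Glycerolipid assembly had 6 of 15 higher and 1 lower in hepatocytes and 6 higher and 2 lower in whole liver. Lpin1 (1.27), a phosphatidate phosphatase, Mogat1 (0.81) and Dgat1 (0.71), an enzyme of the last step to triglyceride, rose in hepatocytes, where Tm6sf2 (-0.62) fell. In whole liver Lpin3 (0.56), Dgat1 (0.51) and Mogat1 (0.35) rose, and Dgat2 (-0.84), the other triglyceride-forming enzyme, and Gpat4 (-0.14) fell. Mogat1 was low, at means of 0.42 FPKM in Cdk1 Liv-/- and 0.22 FPKM in WT whole liver, where its libraries overlapped. In hepatocytes its means were 0.75 and 0.20 FPKM.

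Regulators of lipogenesis had 1 of 26 higher and 1 lower in hepatocytes, and 8 higher and 3 lower in whole liver. Scap, the escort protein that SREBP needs to leave the endoplasmic reticulum, fell by 0.72 in hepatocytes and 0.73 in whole liver, alongside the values of Srebf1 above. Trib1 (0.72) rose in hepatocytes. Insig2 (0.91), which retains SCAP, Pparg (0.62) and Bhlhe40 (0.53) rose in whole liver, and Ppargc1b (-0.53) and Insr (-0.15), the insulin receptor, fell there. Ppargc1b was low, at means of 0.36 FPKM in Cdk1 Liv-/- and 0.74 FPKM in WT whole liver. In the list of sugar entry 1 of 14 was higher and 0 were lower in hepatocytes, and 4 were higher and 4 lower in whole liver. Tkt, of the pentose phosphate pathway, rose by 0.47 and 0.65. Eno1 (0.92) and Tkfc (0.55) rose in whole liver, and Pfkfb1 (-0.69), which sets the level of an activator of glycolysis, fell there.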

How the data were processed

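Polyadenylated RNA was made into libraries by the authors with a TruSeq Stranded mRNA kit and read as 75 bp single ends. According to the submitters' processing notes, STAR and RSEM 1.2.31 were used with mm10, and the sources used here do not give the annotation release. The deposited values are FPKM per gene, to 2 decimals, and the authors applied no normalization between libraries. Genes were tested in limma 3.58.1 (R 4.3.3) on log2(FPKM + 0.5), with moderated variances that follow the mean level, two-sided, with Benjamini-Hochberg adjustment over the 17386 genes with a mean of at least 0.1 FPKM. A gene passed at an adjusted p of at most 0.1. Genotypes were compared within a compartment and compartments within a genotype (6 libraries each), and the interaction over 12. Depth was read from the steps that single reads leave in low FPKM values, and p-values measure the spread between libraries. The fit was tested on simulated data. All 10 members are named, with up to 3 passing genes at each end of every related list and the 3 nearest profiles, and some genes taken by this rule are not reported here. The members and lists were chosen with earlier results of these data known. Alternatives were another pseudocount, filter, scaling, threshold or test, a replicate block and leaving out each library. Among these, shares of all genes called were counted for size factors only. The deposited table held no column of another series.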

Additional observations from a re-analysis of the deposited data

Results flagged for a closer look

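In 4 members the genotype change was tested to differ between isolated hepatocytes and whole liver. The difference of the log2 fold changes was 1.81 in Scd1 (3.39 in hepatocytes and 1.58 in whole liver), 1.14 in Elovl6 (2.96 and 1.82), 2.96 in Thrsp (2.66 and -0.30) and 1.13 in Mlxipl (0.56 and -0.57). The adjusted p of the interaction from limma ranged over the alternatives from 0.0562 to 0.164 for Scd1, from 0.0537 to 0.187 for Elovl6, from 0.0427 to 0.162 for Thrsp and from 0.00695 to 0.101 for Mlxipl.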

How the results depend on the processing

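Scd1 and Elovl6 in either compartment, and Thrsp and Me1 in hepatocytes, passed in the same direction under all 18 alternatives. In whole liver Srebf1 passed in all but 2 of 18 and Mlxipl in all but 1, whereas Fasn (7 of 18) and Mlxipl (9 of 18) in hepatocytes and Me1 (7 of 18) in whole liver kept their calls less often. Pnpla3 was not tested under the filter at a mean of 1 FPKM, and its few reads limit what can be seen of it.

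Leaving out 1 library at a time gave 4 to 5 members higher and 0 to 2 lower in hepatocytes, 2 to 3 higher and 2 to 2 lower in whole liver, 0 to 3 with a higher and 0 to 1 with a lower change in hepatocytes than in whole liver, 0 to 2 higher in hepatocytes than whole liver in WT, and 3 to 6 higher and 0 to 1 lower in Cdk1 Liv-/-. Of the related genes 8 to 19 were then higher and 6 to 10 lower in hepatocytes, and 30 to 45 higher and 11 to 16 lower in whole liver. Log2 values that changed sign with a library left out ranged, in hepatocytes, from -0.040 to 0.73 for Acaca and from -0.28 to 0.39 for Acly, and in whole liver from -0.85 to 0.26 for Thrsp and from -0.041 to 0.17 for Pnpla3. They ranged in the interaction from -0.60 to 0.073 for Acly and from -0.71 to 0.059 for Srebf1, between compartments of WT from -0.10 to 0.057 for Mlxipl, from -0.0062 to 0.21 for Pnpla3 and from -0.32 to 0.10 for Scd1, and between those of Cdk1 Liv-/- from -0.34 to 0.34 for Acly, from -0.19 to 0.23 for Fasn and from -0.48 to 0.29 for Srebf1.

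Without a filter 11 related genes were higher in hepatocytes, 1 member passed the interaction, and 3 were higher and 0 lower in hepatocytes than whole liver in Cdk1 Liv-/-. With size factors 22 related genes were higher and 30 lower in whole liver, beside 17.9% and 16.4% of all genes tested. Under the same scaling Pnpla3 was at -0.087 in whole liver, and the WT compartment differences of Scd1 and Mlxipl were 0.025 and 0.12. That of Srebf1 in Cdk1 Liv-/- was 0.24. With libraries scaled to the same sum, Mlxipl was at 0.033 in WT. The 1 fit of all libraries called 2 members lower in hepatocytes and 1 in whole liver. At an adjusted p of at most 0.05, 11 related genes were higher in hepatocytes and 1 member passed the interaction. Asking also for a log2 fold change of at least 1 left 7 related genes higher and 1 lower in hepatocytes, 7 higher and 1 lower in whole liver, and 0 members lower there. The 1 member lower in Cdk1 Liv-/- hepatocytes than whole liver, Pnpla3, became 0 with a pseudocount of 0.1, either filter, either scaling, the block, the stricter threshold or the fold. The causes were not tested.

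Of 18 correlations of the deviations of same-numbered libraries, 2 were over 0.1 (range -0.32 to 0.24). Most of the 18 joined different genotypes. Between the compartments of a genotype they were 0.046, 0.074 and 0.24 in WT and -0.035, -0.057 and -0.12 in Cdk1 Liv-/-. Differently numbered libraries were not compared, so whether the numbers pair libraries was not tested. With the replicate number as a block, 6 members were higher and 0 lower in hepatocytes and 2 higher and 2 lower in whole liver, 1 passed the interaction, 0 differed between compartments in WT, 5 were higher and 0 lower in hepatocytes in Cdk1 Liv-/-, and 10 related genes were higher in hepatocytes.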
